A study of Mus musculus with 12 samples.

Results

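The genes described are 44 genes of ependymal motile cilia, listed by symbol. No value on these arrays was a rule for entry, but the list was chosen with earlier results of these data known. Of the 44 genes, 43 had a probe set that carries their symbol alone, among 18194 genes measured on the array, and Mcidas was not analysed here. Each gene is represented by its probe set with the highest mean level. The data are mouse spinal cord RNA on 12 one-colour Affymetrix arrays, in 4 groups of 3 biological replicates: wild type and Olig2cre/DA-Cat, each sampled on day 4 and on day 15. Olig2cre is a Cre recombinase under the control of Olig2, a transcription factor of oligodendrocyte and motor neuron progenitors, and DA-Cat is a dominant-active β-catenin, which switches on canonical Wnt target genes where it is made. No group carries the Cre alone, so an effect of the Cre and one of DA-Cat cannot be told apart. All 12 samples carry the same description of a lysolecithin injection, which strips myelin, into adult ventrolateral white matter, while the day is tagged as a developmental stage; what the days are counted from is not settled by the labels. How many animals went into each sample is not in the labels.

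Ependymal cells line the central canal of the spinal cord and carry motile cilia that move cerebrospinal fluid. A motile cilium holds a ring of doublet microtubules around a central pair; dynein arms bend it, radial spokes and the nexin-dynein regulatory complex coordinate the arms, and tektins and related proteins lie along or inside the doublets. Its genes are switched on as a program by Foxj1 and by RFX factors, with Mcidas and cyclin O (Ccno) acting on the multiplication of centrioles that become basal bodies.

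RFX factors bind sites built on the letters GTTGCC, and promoters were searched for these letters because Rfx2 and Rfx3, regulators among the 43 genes, bind there. RefSeq promoters (GRCm38.p6, from 250 bases before to 50 after each start) were in the table used for 38 of the 44 genes; Foxj1, Armc4, Rsph1, Rsph4a, Stk33 and Tppp3 had no entry there. Both strands were searched. The single RFX site GTTGCC occurred in at least 1 promoter of 21 of these 38 genes (55.3%) and of 14.1% of all 27025 genes with a promoter. The paired site, GTNNCC followed after 2 bases by GGNAAC, can contain the single site and occurred in 5 of 38 (13.2%) and in 1.49% of all. With 3 bases between its arms it occurred in 1 of 38 and in 0.296% of all. The forkhead core GTAAACA, the type of site bound by Foxj1, occurred in 2 of 38 (5.26%) and in 4.05% of all. A match is a description of letters, not a site shown to be used. The 250 bases before the start are given below for 4 genes whose levels are followed through the results: Enkur and Tekt2 with single sites, Pifo with a paired site, and Rsph9 with none of these letters in its window. All 4 lie on the minus strand and are written 5′ to 3′ along the gene, with the matches in capitals. Tekt2 and Pifo have more than 1 annotated start, and the bases before 1 of them are given. The Tekt2 matches also lie in the window of another Tekt2 start.
Enkur, chr2:21205366-21205615: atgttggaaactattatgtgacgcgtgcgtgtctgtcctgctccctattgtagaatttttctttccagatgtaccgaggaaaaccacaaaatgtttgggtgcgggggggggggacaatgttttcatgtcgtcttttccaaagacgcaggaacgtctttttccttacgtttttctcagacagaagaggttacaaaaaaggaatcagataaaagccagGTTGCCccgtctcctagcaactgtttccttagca
Tekt2, chr4:126325689-126325938: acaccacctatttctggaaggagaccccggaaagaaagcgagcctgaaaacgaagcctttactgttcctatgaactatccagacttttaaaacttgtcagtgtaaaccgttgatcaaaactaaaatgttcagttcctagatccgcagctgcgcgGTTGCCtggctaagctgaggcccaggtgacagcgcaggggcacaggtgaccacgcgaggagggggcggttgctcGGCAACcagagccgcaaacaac
Pifo, chr3:106001498-106001747: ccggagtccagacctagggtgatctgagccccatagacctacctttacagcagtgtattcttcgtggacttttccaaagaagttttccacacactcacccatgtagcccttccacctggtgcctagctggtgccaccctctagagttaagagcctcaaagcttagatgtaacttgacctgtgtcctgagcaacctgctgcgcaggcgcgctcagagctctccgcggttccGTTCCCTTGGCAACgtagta
Rsph9, chr17:46144201-46144450: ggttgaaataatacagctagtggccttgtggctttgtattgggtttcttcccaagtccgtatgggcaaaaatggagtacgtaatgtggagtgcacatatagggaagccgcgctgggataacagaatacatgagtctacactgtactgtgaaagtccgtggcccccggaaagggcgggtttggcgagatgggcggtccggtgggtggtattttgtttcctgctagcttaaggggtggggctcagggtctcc

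Levels are log2 signals and differences are log2 differences between group means, given ± SE from a limma fit over all 12 arrays; a difference counts as called at a Benjamini-Hochberg adjusted p under 0.05 over all 18194 genes. Array medians, over all probe sets, lay between 6.14 and 6.19. The 27 probe sets for bacterial controls had a median level of 3.08 and a 95th percentile of 4.65. Spag16 and Iqcg lay under 4.65 on every array. Among the 18194 genes by brightest probe set, only Rsph9 and Tppp3 of the 43 lay above the median gene. The median residual SD was 0.142 over the 43 and 0.106 over all genes. Shares called among the 43 are thus set against genes that were mostly brighter and less variable. Of the 43 genes, 31 had a mean level of 5 or more. The other 12 (Spag17, Ccdc113, Armc3, Iqcg, Spag16, Armc4, Ccno, Ak8, Tekt1, Dnah5, Spef2 and Ropn1l) were under 5 in all 4 groups, closer to the controls, where a true difference would be understated. The source label names ventrolateral white matter and the titles name spinal cord, so whether white matter alone was taken is not settled. The central canal lies in grey matter, and the mean level of 14 neuron genes was 11.88 to 12.12 on every array. The 20 fixed ependymal genes outside the cilium averaged 9.21 to 9.58, and 9 choroid plexus genes, the other ciliated epithelium of the nervous system, lay between 5.20 and 5.54. In bulk tissue, fewer ciliated cells and less RNA per ciliated cell cannot be told apart. Skeletal muscle genes varied between arrays within every group, their mean over 12 genes running from 5.21 to 10.70, with the highest value in Olig2cre/DA-Cat day 15 replicate 1.

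At day 4 the motile cilium genes stood slightly higher in Olig2cre/DA-Cat than in wild type as a list, while 1 of them passed the test. Enkur, a protein of the doublet microtubule lumen, was 1.43-fold higher (log2 difference 0.51 ± 0.12, limma adjusted p = 0.042), and 0 were called lower, against 3.12% of all genes called (1.3% higher and 1.81% lower). Of the 43 differences 35 were above 0, with a median of 0.17. Among all 18194 genes 10571 were above 0, with a median of 0.03. With quantile normalization 39 of the 43 were above 0 (median 0.18), and with median-centred arrays 33 (median 0.12). For all genes these counts were 9811 and 8363. All 3 Olig2cre/DA-Cat arrays lay above all 3 wild-type arrays for 16 of the 43 genes (37.2%), against 18.8% of all genes, and below them for 1 gene, Hydin, against 10.3% of all genes. At an unadjusted p under 0.05, 14 of the 43 were higher (32.6%, against 12.8% of all genes) and 2 were lower (4.65%, against 7.75% of all genes).

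The mean over the 43 genes was 5.83, 5.84 and 5.87 on the wild-type arrays of day 4 and 5.97, 6.05 and 6.003 on the Olig2cre/DA-Cat arrays. At day 15 it was 5.70, 5.70 and 5.78 in wild type and 5.67, 5.74 and 5.77 in Olig2cre/DA-Cat. The genotypes were thus apart at day 4, by less than 0.2 on the log2 scale, and overlapped at day 15. Among the 31 genes at a level of 5 or more the day 4 median difference was 0.19, with 28 of 31 above 0.

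At day 15, 0 of the 43 genes were called between genotypes by limma, against 2.93% of all genes (0.616% higher and 2.31% lower). At an unadjusted p under 0.05 there were 4, against 16.9% of all genes, of which 2 were higher (background 8.52%) and 2 lower (background 8.4%). The genotypes did not overlap for 7 genes, 3 higher in Olig2cre/DA-Cat (Ccno, Zmynd10 and Efhc2, against 10.6% of all genes) and 4 lower (Rfx3, Hydin, Spef2 and Tppp3, against 9.69%). The differences split into 21 above and 22 below 0, with a median of -0.03. The smallest adjusted p was 0.0814, for Efhc2. The 95% interval lay within 0.5 log2 of 0 for 41 of the 43 genes at day 15 and for 31 at day 4, so that small differences remain possible for most and a larger one is not bounded for the others. On average over both days 1 gene, Efhc2, was called higher (0.25 ± 0.05, limma adjusted p = 0.0129), and 0 lower, against 8.31% of all genes (4.19% higher and 4.12% lower).

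**Figure D1:**
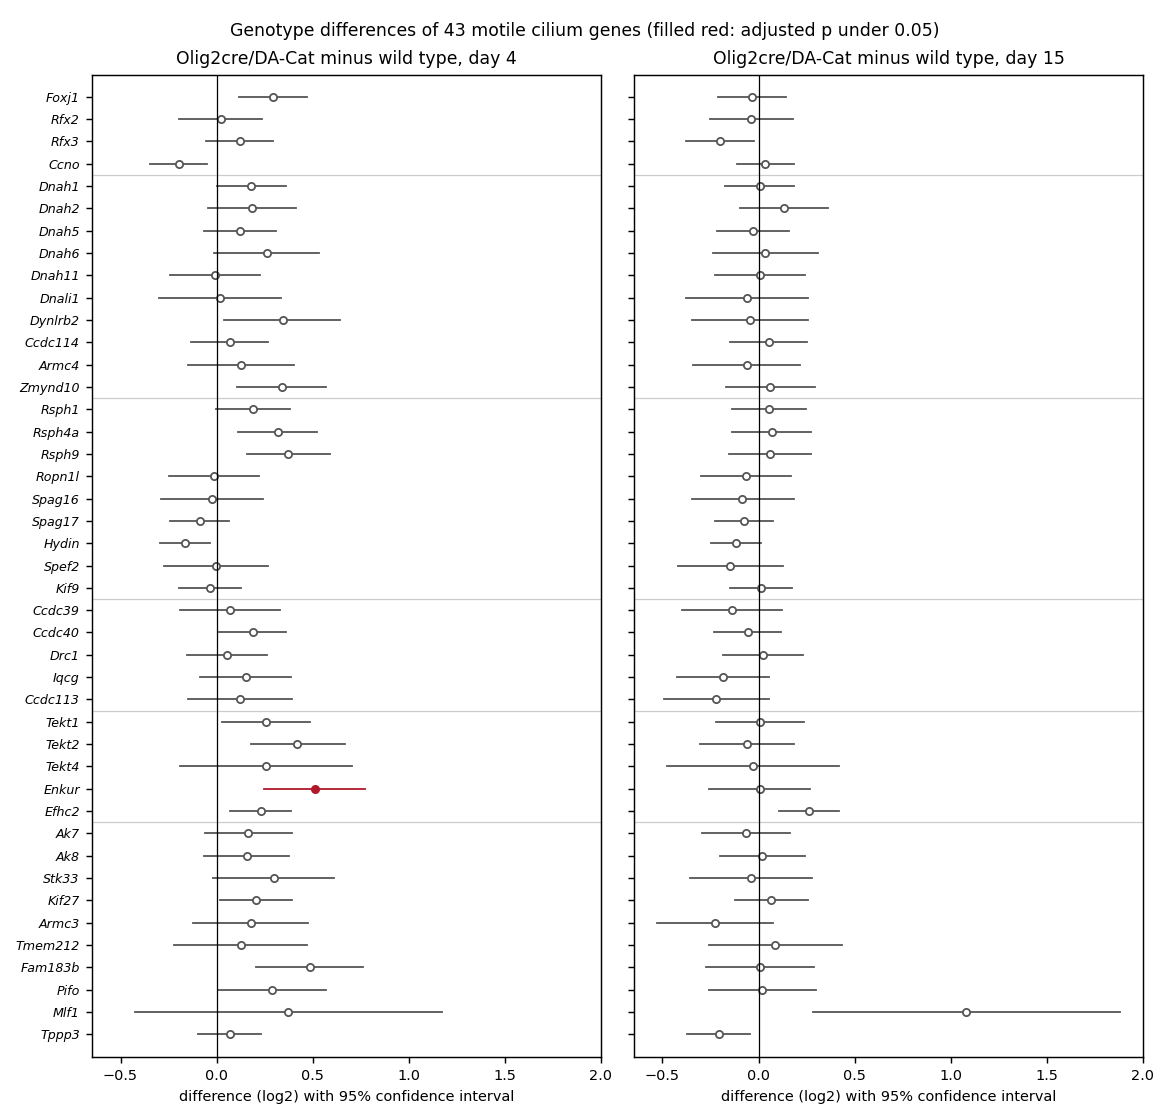
Log2 differences between Olig2cre/DA-Cat and wild type for the 43 motile cilium genes, grouped by role and plotted separately for each day. Points are fitted differences, bars 95% confidence intervals and filled red points adjusted p under 0.05; at day 4, 35 points lie right of 0 and Enkur alone is filled, and at day 15 the points lie on both sides of 0.

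Among the regulators, Foxj1, the forkhead factor of the motile cilium program, read 6.60, 6.63 and 6.86 in wild type at day 4 and 6.98, 6.999 and 6.995 in Olig2cre/DA-Cat. The day 15 values were 6.92, 6.84 and 6.70 in wild type and 6.85, 6.83 and 6.68 in Olig2cre/DA-Cat. The day 4 groups did not overlap, with a difference of 0.29 ± 0.08 that missed the threshold (limma adjusted p = 0.0743), and the day 15 groups overlapped. Without wild type day 4 replicate 3, the highest of its group, the Foxj1 difference was 0.38 and called (adjusted p = 0.0285).

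Rfx3, an RFX factor of ciliated cells, read 7.22, 7.17 and 7.12 in wild type at day 4, 7.09, 7.40 and 7.38 in Olig2cre/DA-Cat at day 4, 6.99, 6.92 and 7.001 in wild type at day 15 and 6.69, 6.82 and 6.80 in Olig2cre/DA-Cat at day 15. It fell between days by 0.52 ± 0.08 in Olig2cre/DA-Cat (limma adjusted p = 0.000156), while the wild-type difference of -0.20 ± 0.08 missed the threshold (adjusted p = 0.0588). A second, dimmer Rfx3 probe set differed between days in Olig2cre/DA-Cat by 0.15 ± 0.11 and between genotypes at day 15 by 0.13 ± 0.11, each opposite in sign to the one given; with the mean of both the difference in Olig2cre/DA-Cat was -0.19 and called (adjusted p = 0.0365). The genotype groups of Rfx3 overlapped at day 4, and at day 15 all Olig2cre/DA-Cat values lay below wild type without a call (-0.20, adjusted p = 0.232).

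Rfx2, which binds the same type of site, read 5.71, 5.69 and 5.80 in wild type and 5.78, 5.71 and 5.77 in Olig2cre/DA-Cat at day 4. At day 15 the values were 5.33, 5.34 and 5.59, and 5.45, 5.55 and 5.15. It fell between days by 0.31 ± 0.10 in wild type (limma adjusted p = 0.022) and by 0.37 ± 0.10 in Olig2cre/DA-Cat (adjusted p = 0.00771). Rfx2 has 4 probe sets, and with their mean in place of the brightest the differences were -0.15 and -0.13 and were not called (adjusted p = 0.113 and 0.146). The wild-type call was also lost without wild type day 4 replicate 3, day 15 replicate 1 or day 15 replicate 2 (adjusted p up to 0.0823).

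Ccno, cyclin O, is dim on these arrays. It read 4.53, 4.59 and 4.68 in wild type and 4.54, 4.30 and 4.37 in Olig2cre/DA-Cat at day 4, and 4.66, 4.68 and 4.66 against 4.70, 4.71 and 4.68 at day 15. The Olig2cre/DA-Cat values of day 4 were among the lowest of the 12, and Ccno rose between days in that genotype by 0.30 ± 0.07 (limma adjusted p = 0.00268), opposite to Rfx2 and Rfx3. Those day 4 values lay under 4.65, the 95th percentile of the bacterial controls, and the day 15 values of that genotype just above it.

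**Figure D2:**
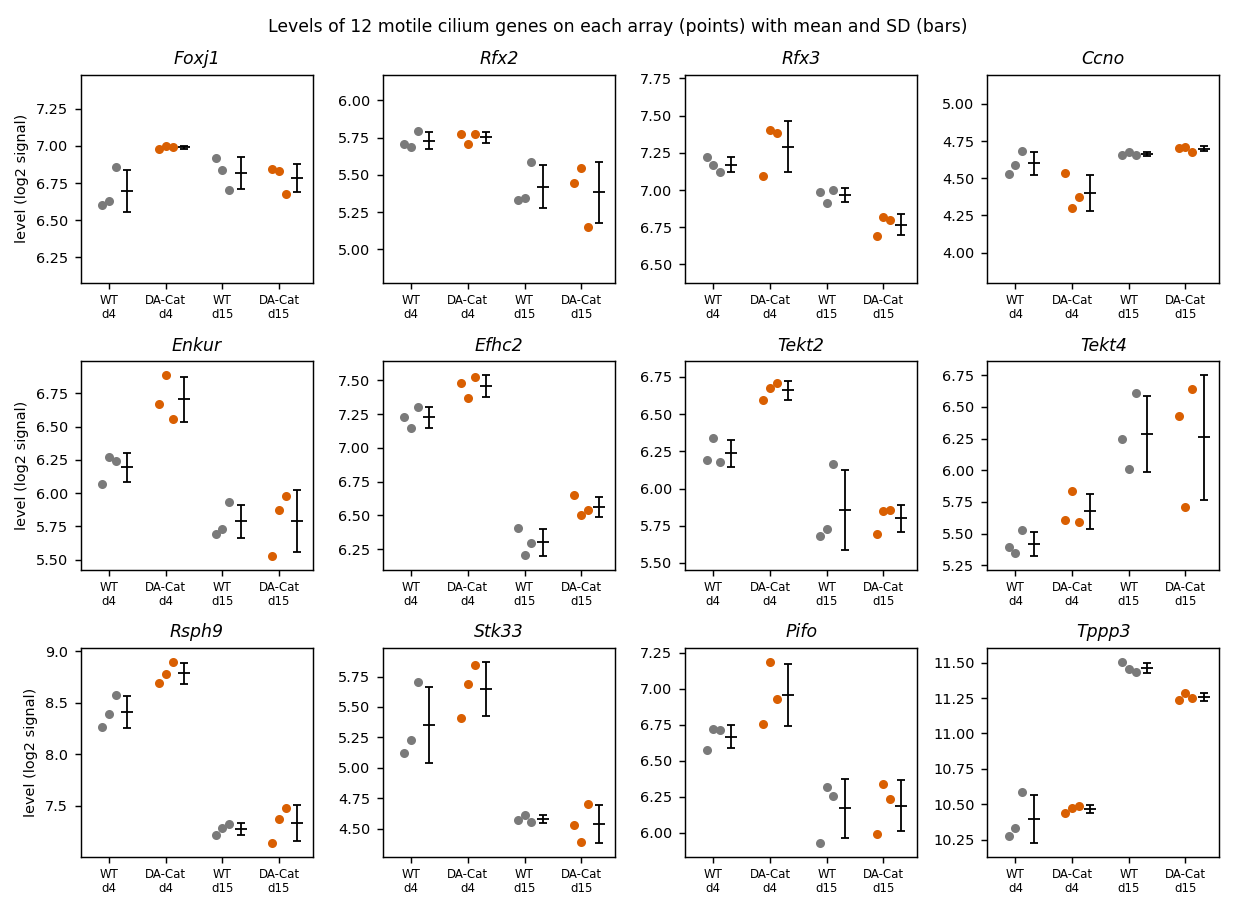
Log2 signal of selected motile cilium genes on each of the 12 arrays, 1 point per array in 4 groups of 3, with a bar at each group mean and a vertical axis of its own for each gene. Enkur and Foxj1 are separated between genotypes at day 4 and not at day 15, Rsph9 and Efhc2 are lower at day 15 in both genotypes, and Tppp3 is higher at day 15.

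Of the 10 genes for arms, docking and assembly, 0 were called between genotypes on either day, against 3.12% of all genes at day 4 and 2.93% at day 15. Between days 0 of the 10 were called in wild type, against 44.9% of all genes, and 1, Dynlrb2, fell in Olig2cre/DA-Cat, against 48.1% of all genes called. Dynlrb2, a dynein light chain, read 6.90, 6.77 and 6.89 in wild type and 6.98, 7.20 and 7.40 in Olig2cre/DA-Cat at day 4. By day 15 it read 6.54, 6.80 and 6.74 against 6.33, 6.72 and 6.90, so that its groups were apart at day 4 alone. The fall in Olig2cre/DA-Cat was 0.55 ± 0.14 (limma adjusted p = 0.00549), and the day 4 genotype difference of 0.34 ± 0.14 was not called (adjusted p = 0.187).

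Dnah11, an outer arm heavy chain, had nearly the same day 4 values in both genotypes (6.48, 6.39 and 6.28 against 6.46, 6.39 and 6.28). At day 15 it read 6.36, 6.08 and 5.98 against 5.97, 6.29 and 6.19, and the groups overlapped on both days. Its day difference in wild type, -0.24 ± 0.11, was not called (limma adjusted p = 0.0886), but was -0.35 and called without wild type day 15 replicate 1 (adjusted p = 0.016). Dnah2, an inner arm heavy chain, read 5.22, 5.58 and 5.35 in wild type and 5.62, 5.56 and 5.52 in Olig2cre/DA-Cat at day 4, and 5.76, 5.35 and 5.62 against 5.68, 5.72 and 5.73 at day 15. Its wild-type day difference of 0.19 ± 0.11 was not called (adjusted p = 0.162); it was called without wild type day 4 replicate 2 (0.29, adjusted p = 0.0445) or day 15 replicate 2 (0.31, adjusted p = 0.0238). A second Dnah2 probe set differed by -0.12 ± 0.10 in that comparison. Zmynd10, which acts in the assembly of dynein arms before they enter the cilium, was separated between genotypes on both days without a call, with differences of 0.34 ± 0.11 at day 4 (adjusted p = 0.104) and 0.06 ± 0.11 at day 15. The heavy chains Dnah1, Dnah5 and Dnah6, the light intermediate chain gene Dnali1 and the docking genes Ccdc114 and Armc4 had day 4 differences between 0.02 and 0.26.

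Among 9 radial spoke and central pair genes the spoke head gene Rsph9 fell most between days. It read 8.27, 8.39 and 8.57 in wild type and 8.69, 8.77 and 8.89 in Olig2cre/DA-Cat at day 4, and 7.21, 7.28 and 7.32 against 7.14, 7.37 and 7.48 at day 15. All day 15 values lay below all day 4 values, a fall of 1.14 ± 0.10 in wild type (2.2-fold, limma adjusted p = 1.49e-06) and of 1.46 ± 0.10 in Olig2cre/DA-Cat (2.74-fold, adjusted p = 1.59e-07). At day 4 the genotypes did not overlap, with a difference of 0.37 ± 0.10 that missed the threshold (adjusted p = 0.0617). It was called without wild type day 4 replicate 3 (0.46, adjusted p = 0.0367) and without Olig2cre/DA-Cat day 15 replicate 1 (0.37, adjusted p = 0.0362).

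Rsph4a, another spoke head gene, read 5.61, 5.27 and 5.31 in wild type and 5.70, 5.69 and 5.76 in Olig2cre/DA-Cat at day 4, and 4.96, 5.12 and 5.20 against 5.06, 5.18 and 5.25 at day 15. The genotypes were apart at day 4 by 0.32 ± 0.10 without a call (limma adjusted p = 0.0904), and overlapped at day 15. Without wild type day 4 replicate 1, the highest of its group, the day 4 difference was 0.43 and called (adjusted p = 0.032). Rsph4a fell between days by 0.30 ± 0.10 in wild type (adjusted p = 0.0209) and by 0.55 ± 0.10 in Olig2cre/DA-Cat (adjusted p = 0.000372). The wild-type call was lost without wild type day 4 replicate 1 or day 15 replicate 1 (adjusted p = 0.0905 and 0.0913) and under both other scalings of the arrays (adjusted p = 0.0665 and 0.0658).

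Spag16, a central pair gene near the dim end, read 4.61, 4.49 and 4.32 in wild type and 4.47, 4.58 and 4.31 in Olig2cre/DA-Cat at day 4, and 4.09, 4.21 and 4.18 against 3.78, 4.30 and 4.16 at day 15. Its genotypes overlapped on both days. It fell between days in Olig2cre/DA-Cat by 0.37 ± 0.12 (limma adjusted p = 0.0228), a call lost without Olig2cre/DA-Cat day 4 replicate 1, day 4 replicate 2 or day 15 replicate 1 (adjusted p up to 0.0912). It was also lost with the mean of the 4 Spag16 probe sets, where the difference was -0.16 (adjusted p = 0.0507), and with median-centred arrays (-0.30, adjusted p = 0.0755). The wild-type difference of -0.31 ± 0.12 missed the threshold (adjusted p = 0.0541), and was called without wild type day 4 replicate 3 and without Olig2cre/DA-Cat day 15 replicate 1 or 2. Hydin, a large central pair protein, was the 1 gene with all Olig2cre/DA-Cat values below wild type at day 4, and this held at day 15 as well. The Hydin differences were -0.16 ± 0.06 at day 4 (adjusted p = 0.151), -0.12 ± 0.06 at day 15 (adjusted p = 0.351) and -0.14 ± 0.04 on average (adjusted p = 0.06), none of them called. Hydin fell between days in wild type by 0.16 ± 0.06 (adjusted p = 0.0437), and its difference of -0.12 in Olig2cre/DA-Cat was not called (adjusted p = 0.137). That wild-type call was lost without any 1 of 7 arrays (wild type day 4 replicates 1 and 2, all 3 of wild type day 15, and replicate 3 of Olig2cre/DA-Cat on each day; adjusted p = 0.0549 to 0.138) and under both other scalings. The brightest of 2 Hydin probe sets is the one given. The dimmer one had the opposite sign in all comparisons but that of genotypes at day 4 and the difference of the genotype effects between days. The dimmer one differed between genotypes by -0.03 ± 0.08 at day 4 and 0.13 ± 0.08 at day 15, and across days by 0.12 ± 0.08 in wild type and by 0.28 ± 0.08 in Olig2cre/DA-Cat. With the mean of both, the wild-type day difference of Hydin was -0.02 (adjusted p = 0.824). The average genotype difference was called without wild type day 4 replicate 3, Olig2cre/DA-Cat day 4 replicate 1 or Olig2cre/DA-Cat day 15 replicate 2 (adjusted p = 0.0473 to 0.0496). Rsph1, Ropn1l, Spag17, Spef2 and Kif9 were called in no comparison over the 12 arrays; Rsph1 was called on average without Olig2cre/DA-Cat day 15 replicate 1 (0.18, adjusted p = 0.0481).

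Ccdc39 and Ccdc40 form the ruler that sets the spacing of spokes and inner arms along the doublet. Ccdc40 read 6.36, 6.38 and 6.38 in wild type and 6.63, 6.47 and 6.57 in Olig2cre/DA-Cat at day 4, and 6.14, 6.02 and 6.29 against 6.002, 6.22 and 6.05 at day 15. The groups were apart at day 4 (0.19 ± 0.08, limma adjusted p = 0.211) and not at day 15. It fell between days by 0.23 ± 0.08 in wild type (adjusted p = 0.0372) and by 0.47 ± 0.08 in Olig2cre/DA-Cat (adjusted p = 0.000357). The wild-type call was lost without any 1 of 6 arrays (all 3 of wild type day 4, wild type day 15 replicates 1 and 2, and Olig2cre/DA-Cat day 4 replicate 3, adjusted p up to 0.156).

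Drc1, which organises the nexin-dynein regulatory complex, read 6.47, 6.22 and 6.56 in wild type and 6.58, 6.34 and 6.49 in Olig2cre/DA-Cat at day 4, and 6.20, 6.15 and 6.21 against 6.06, 6.28 and 6.28 at day 15, with the genotypes overlapping on both days. Its fall in Olig2cre/DA-Cat, 0.26 ± 0.10, was called (limma adjusted p = 0.0396) and lost without any 1 of 5 arrays (Olig2cre/DA-Cat day 4 replicates 1 and 3 and day 15 replicate 1, and wild type day 15 replicates 1 and 2). Ccdc39 and Iqcg fell in Olig2cre/DA-Cat as well, by 0.43 ± 0.12 and 0.37 ± 0.11; the call of Iqcg was lost without Olig2cre/DA-Cat day 4 replicate 2 or day 15 replicate 3 (adjusted p = 0.0607 and 0.0504). Ccdc113, whose level was near that of the bacterial controls, read 3.39, 3.49 and 3.54 in wild type and 3.44, 3.55 and 3.79 in Olig2cre/DA-Cat at day 4, and 3.56, 3.67 and 3.98 against 3.31, 3.59 and 3.65 at day 15. Its values overlapped between all groups but those of wild type across days, and no difference was called.

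The genes of the doublet wall and lumen held both of the genes called between genotypes. Enkur read 6.07, 6.27 and 6.24 in wild type at day 4 and 6.67, 6.88 and 6.56 in Olig2cre/DA-Cat. At day 15 it read 5.70, 5.73 and 5.93 in wild type and 5.53, 5.87 and 5.98 in Olig2cre/DA-Cat. The genotypes were apart at day 4 and overlapped at day 15 (difference 0.01 ± 0.12). Enkur fell between days by 0.41 ± 0.12 in wild type (limma adjusted p = 0.0151) and by 0.91 ± 0.12 in Olig2cre/DA-Cat (adjusted p = 4.45e-05). Its day 4 genotype call was close to the threshold: it was lost without any 1 of the 6 arrays of day 4 (adjusted p = 0.0614 to 0.165) and without wild type day 15 replicate 1 or 2 (adjusted p = 0.0548 and 0.0588). The wild-type fall was lost without wild type day 4 replicate 2 or day 15 replicate 1 (adjusted p = 0.055 and 0.0573).

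Efhc2, an EF-hand protein of the doublet, read 7.23, 7.15 and 7.30 in wild type and 7.48, 7.37 and 7.52 in Olig2cre/DA-Cat at day 4. At the later day Efhc2 read 6.40, 6.20 and 6.30 against 6.65, 6.50 and 6.54. The genotypes did not overlap on either day, with differences of 0.23 ± 0.07 (limma adjusted p = 0.107) and 0.26 ± 0.07 (adjusted p = 0.0814), and their average was called. Without any 1 array, and under every other setting run, that average kept its call (adjusted p = 0.00685 to 0.0432). Efhc2 fell between days by 0.93 ± 0.07 in wild type (1.9-fold, adjusted p = 6.9e-07) and by 0.89 ± 0.07 in Olig2cre/DA-Cat (1.86-fold, adjusted p = 7.41e-07). The difference between the 2 genotype effects was 0.03 ± 0.10.

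Tekt4, a tektin, went the other way between days. It read 5.39, 5.34 and 5.53 in wild type and 5.60, 5.84 and 5.59 in Olig2cre/DA-Cat at day 4, and 6.25, 6.01 and 6.61 against 6.43, 5.71 and 6.64 at day 15. It rose in wild type by 0.87 ± 0.21 (limma adjusted p = 0.004) with no overlap, and in Olig2cre/DA-Cat by 0.58 ± 0.21 (adjusted p = 0.0335), where day 15 replicate 2 lay among the day 4 values. That second call was lost without Olig2cre/DA-Cat day 4 replicate 1 or 3 or day 15 replicate 1 or 3 (adjusted p = 0.088 to 0.143).

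Tekt2, chosen after its values were seen, read 6.19, 6.34 and 6.18 in wild type and 6.59, 6.67 and 6.71 in Olig2cre/DA-Cat at day 4, a difference of 0.42 ± 0.11 without overlap that missed the threshold (limma adjusted p = 0.0638). At day 15 it read 5.68, 5.72 and 6.17 against 5.69, 5.85 and 5.85. It fell by 0.38 ± 0.11 in wild type (adjusted p = 0.0147) and by 0.86 ± 0.11 in Olig2cre/DA-Cat (adjusted p = 4.02e-05). The wild-type call was lost without wild type day 4 replicate 2, day 15 replicate 1 or day 15 replicate 2 (adjusted p = 0.061 to 0.0689), and the day 4 genotype difference was called without wild type day 15 replicate 3 (adjusted p = 0.00745). Tekt1 fell in Olig2cre/DA-Cat by 0.28 ± 0.11 (adjusted p = 0.044), a call lost without any 1 of 6 arrays (Olig2cre/DA-Cat replicates 1 and 2 of each day, wild type day 4 replicate 3 and wild type day 15 replicate 2; adjusted p up to 0.164).

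In the remaining group of 10 genes, Tppp3, a protein that promotes the assembly of tubulin, rose between days. It read 10.27, 10.33 and 10.59 in wild type and 10.44, 10.48 and 10.49 in Olig2cre/DA-Cat at day 4, and 11.50, 11.45 and 11.44 against 11.24, 11.29 and 11.25 at day 15. It rose by 1.07 ± 0.08 in wild type (2.09-fold, limma adjusted p = 3.01e-07) and by 0.79 ± 0.08 in Olig2cre/DA-Cat (adjusted p = 2.76e-06). At day 15 all Olig2cre/DA-Cat values lay below wild type, without a call (-0.21 ± 0.08, adjusted p = 0.185).

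Stk33, a serine/threonine kinase gene, read 5.12, 5.23 and 5.70 in wild type and 5.41, 5.69 and 5.85 in Olig2cre/DA-Cat at day 4, and 4.57, 4.61 and 4.56 against 4.53, 4.39 and 4.70 at day 15. Genotypes overlapped and days did not: it fell by 0.77 ± 0.15 (limma adjusted p = 0.000802) and by 1.11 ± 0.15 (adjusted p = 4.13e-05). Pifo and Fam183b, both chosen after their values were seen, were separated between genotypes at day 4, by 0.29 ± 0.13 and 0.49 ± 0.13, without a call (adjusted p = 0.228 and 0.0627). Fam183b was called at day 4 without wild type day 4 replicate 3 (0.62, adjusted p = 0.0258) or Olig2cre/DA-Cat day 15 replicate 2 (adjusted p = 0.0413). Pifo, a regulator of cilium disassembly, fell by 0.50 ± 0.13 in wild type and by 0.77 ± 0.13 in Olig2cre/DA-Cat, and Fam183b fell in Olig2cre/DA-Cat by 0.57 ± 0.13. The adenylate kinases Ak7 and Ak8, the kinesin gene Kif27, Armc3 and Tmem212 were called in no comparison over the 12 arrays; with 1 array left out, day differences below 0 were called for Armc3 in Olig2cre/DA-Cat (without wild type day 4 replicate 3) and for Tmem212 in both genotypes (without Olig2cre/DA-Cat day 4 replicate 3 or 1 of the 3 arrays of Olig2cre/DA-Cat day 15).

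Mlf1, also known from skeletal muscle, was the most variable of the 43. It read 6.29, 6.58 and 6.54 in wild type and 6.57, 7.15 and 6.80 in Olig2cre/DA-Cat at day 4, and 5.20, 5.32 and 5.85 against 7.58, 5.63 and 6.41 at day 15. The array with the highest Mlf1, Olig2cre/DA-Cat day 15 replicate 1, also had the highest skeletal muscle level, and the order of the arrays was the same for Mlf1 and for the muscle genes in every group but wild type day 15. The muscle means were 5.65, 8.47 and 7.36 in Olig2cre/DA-Cat at day 4 and 10.70, 5.28 and 8.50 at day 15, against 5.45, 7.92 and 6.23 and then 6.38, 5.21 and 7.46 in wild type. The day 15 genotype difference of Mlf1 was 1.08 ± 0.37 (limma adjusted p = 0.154); with the muscle mean as a covariate it was 0.57 (adjusted p = 0.183), and without Olig2cre/DA-Cat day 15 replicate 2, the lowest in muscle, it was 1.54 and called (adjusted p = 0.0149). Its fall in wild type, 1.01 ± 0.37 (adjusted p = 0.0408), was lost without any 1 of 7 arrays: all 3 of wild type day 4, wild type day 15 replicates 1 and 2, Olig2cre/DA-Cat day 4 replicate 3 and Olig2cre/DA-Cat day 15 replicate 3. In Olig2cre/DA-Cat the day difference of -0.30 was not called, and was -0.58 and called with the covariate (adjusted p = 0.0154) and -0.82 and called without day 15 replicate 1 (adjusted p = 0.017).

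**Figure D3:**
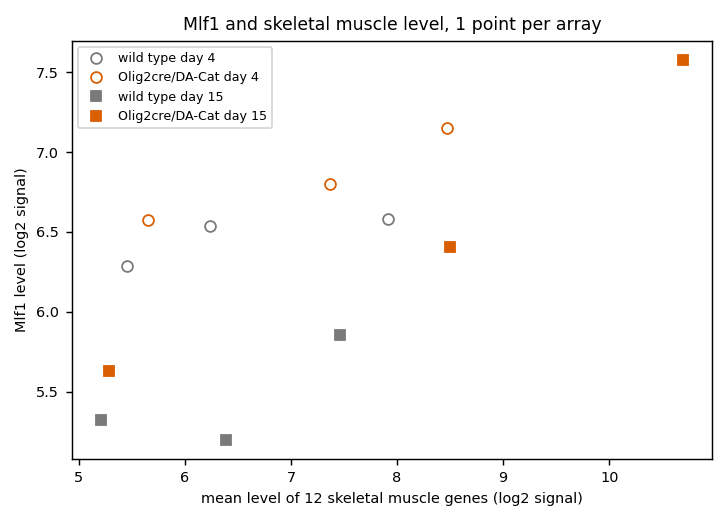
Mlf1 level (vertical axis, log2 signal) against the mean level of 12 skeletal muscle genes (horizontal axis, log2 signal), 1 point per array, with the genotype by colour and the day by marker. The array at the upper right, Olig2cre/DA-Cat day 15 replicate 1, has a muscle mean of 10.70 and a Mlf1 level of 7.58.

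Between days, 13 of the 43 genes were called in wild type by limma, 2 higher and 11 lower (25.6% lower), against 44.9% of all genes, 21.3% higher and 23.6% lower. In Olig2cre/DA-Cat 20 were called, 3 higher and 17 lower (39.5% lower), against 48.1% of all genes, 21.8% higher and 26.3% lower. In wild type the share of falls was thus near that of all genes and the share of rises well below it. The median difference in wild type was -0.04, and it was 0.01 with quantile normalization and 0.02 with median-centred arrays, so the median of all 43 changed sign with the scaling there. For the 31 genes at a level of 5 or more it was -0.16, -0.10 and -0.10 in the same order, with 22, 19 and 19 of 31 below 0, and so stayed below 0 under each scaling. In Olig2cre/DA-Cat the median of the 43 was -0.23 (-0.20 and -0.16 under the other scalings), with 37 of 43 below 0. The median of all genes there was 0.00, with 9050 of 18194 below 0. Days did not overlap for 3 genes that were higher (against 25.3% of all genes) and 15 that were lower (28.1%) in wild type, and for 3 higher (26.1%) and 22 lower (30.1%) in Olig2cre/DA-Cat. Without wild type day 15 replicate 1 the wild-type count of calls was 7 (Dnah11, Rsph9, Tekt4, Efhc2, Stk33, Pifo and Tppp3).

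**Figure D4:**
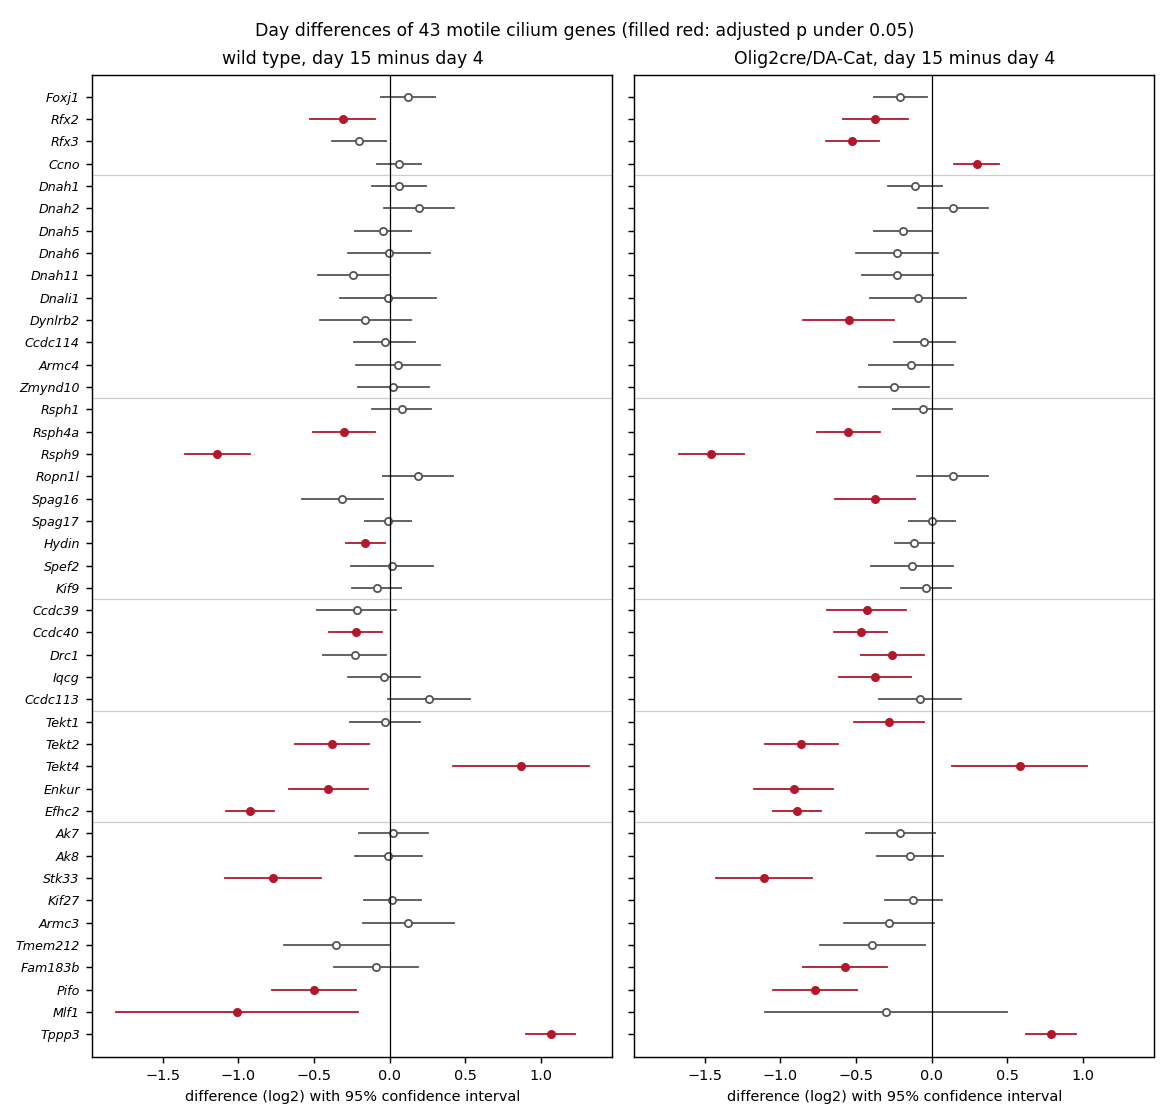
Log2 differences between day 15 and day 4 for the 43 motile cilium genes, wild type on the left and Olig2cre/DA-Cat on the right, with 95% confidence intervals and filled red points for adjusted p under 0.05. Rsph9, Efhc2 and Stk33 lie far left of 0 and Tppp3 and Tekt4 right of 0 in both panels, and 17 points are filled left of 0 in Olig2cre/DA-Cat against 11 in wild type.

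Whether the genotype difference itself changed between days was tested by the interaction. By limma 0 of the 43 genes were called, against 0.352% of all genes (0.192% higher and 0.159% lower), and the smallest adjusted p was 0.339, for Tekt2. At an unadjusted p under 0.05 there were 8 (Foxj1, Rfx3, Ccno, Rsph9, Tekt2, Enkur, Fam183b and Tppp3; 7 of them below 0), against 10.1% of all genes. The median was -0.19, with 36 of 43 below 0, where that of all genes was -0.01, with 9667 of 18194 below 0. A larger number of falls in Olig2cre/DA-Cat than in wild type is therefore not shown as a difference for any single gene.

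The other gene lists set these values in context. Of 61 further motile cilium genes, 2 were called higher at day 4 (Cfap52, 0.48 ± 0.11, and Nme5, 0.35 ± 0.08) and 0 lower. That is 3.28% higher, against 1.3% of all genes. Their median difference was 0.07, with 41 above 0, and 0.03 with median-centred arrays, with 34 above 0. Without overlap 11 were higher (18.0%, against 18.8% of all genes) and 3 lower (4.92%, against 10.3%). At an unadjusted p under 0.05, 17 were higher (27.9%, against 12.8% of all genes). At day 15, 0 of the 61 were called, against 2.93% of all genes. Between days 6 rose (9.84%, against 21.3% of all genes) and 11 fell (18.0%, against 23.6%) in wild type. In Olig2cre/DA-Cat 7 rose (11.5%, against 21.8%) and 18 fell (29.5%, against 26.3%). Dnaic1, a dynein intermediate chain, rose in both genotypes (0.77 ± 0.10 and 0.91 ± 0.10). A further list held 39 genes of intraflagellar transport and the primary cilium, which most cell types build. Of these, 4 were called higher at day 4 (10.26%, against 1.3% of all genes) and 0 lower (against 1.81%). They were Cep164 (0.49 ± 0.11), Bbs2 (0.27 ± 0.07), Ift81 (0.25 ± 0.05) and Bbs5 (0.25 ± 0.06). The median of the 39 was 0.14 (0.08 with quantile normalization). Of these 39 differences 35 were above 0 (89.7%, against 81.4% for the main motile cilium list) and 4 below. Among all 18194 genes 10571 were above 0. Without overlap 18 were higher (46.15%, against 18.8% of all genes) and 2 lower (5.13%, against 10.3%). At an unadjusted p under 0.05, 16 were higher (41.0%, against 12.8% of all genes) and 1 lower (against 7.75%). The interaction was below 0 for 32 of the 39 (median -0.09), where it was for 9667 of all 18194 genes. Of the 39, 0 were called, against 0.352% of all genes. A small shift above 0 at day 4 was therefore measured in genes of the non-motile cilium as well. It was thus not particular to the motile cilium genes.

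Of 15 genes of multiciliation and centriole amplification, 2 further RFX genes were called higher at day 4, Rfx1 (0.34 ± 0.06, limma adjusted p = 0.00579) and Rfx4 (0.31 ± 0.07, adjusted p = 0.0418). That is 13.3% of the list, against 1.3% of all genes. Both RFX genes fell between days in Olig2cre/DA-Cat, Rfx1 by 0.88 ± 0.06 and Rfx4 by 0.69 ± 0.07. The difference of the genotype effects between days was called for neither of them. Their falls are thus not shown to be particular to Olig2cre/DA-Cat. The kinase Plk4, which starts centriole duplication, fell in both genotypes, by 1.05 ± 0.09 and 1.09 ± 0.09. All 21 cell cycle genes measured fell between days in both genotypes (medians -1.46 and -1.47). Radial glia and neural progenitor genes were called lower for 9 of 12 in wild type (75%, against 23.6% of all genes). In Olig2cre/DA-Cat 8 of 12 were called lower (66.7%, against 26.3% of all genes). The part of these lists in the day differences of the cilium genes was not tested.

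Ependymal genes outside the cilium did not move as 1 group. Of 20, 1 was called higher at day 4, the progenitor factor Nkx6-1 (0.74 ± 0.13), and 3 lower, the chloride transporter Slc12a2 (-0.79 ± 0.07), Hspa2 (-0.71 ± 0.10) and S100b (-0.64 ± 0.11). These shares were 5% higher and 15% lower, against 1.3% and 1.81% of all genes. The mean level of the 20 was 9.52 to 9.58 in wild type and 9.53 to 9.58 in Olig2cre/DA-Cat at day 4, and 9.30 to 9.47 and 9.21 to 9.44 at day 15, so that the genotypes overlapped on both days. Some of these 20, S100b among them, are also expressed by other glia. Oligodendrocyte lineage genes were called lower at day 4 for 11 of 13 (84.6%, against 1.81% of all genes). Their mean level was 10.88 to 10.96 in wild type and 9.25 to 9.34 in Olig2cre/DA-Cat at day 4, and 11.53 to 11.70 against 11.02 to 11.38 at day 15. Canonical Wnt feedback genes were called higher for 8 of 10 at day 4 (against 1.3% of all genes). At day 15 this held for 4 of 10 (against 0.616% of all genes). The part of the lower oligodendrocyte share of the RNA in the day 4 shift of the cilium genes was not tested.

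**Figure D5:**
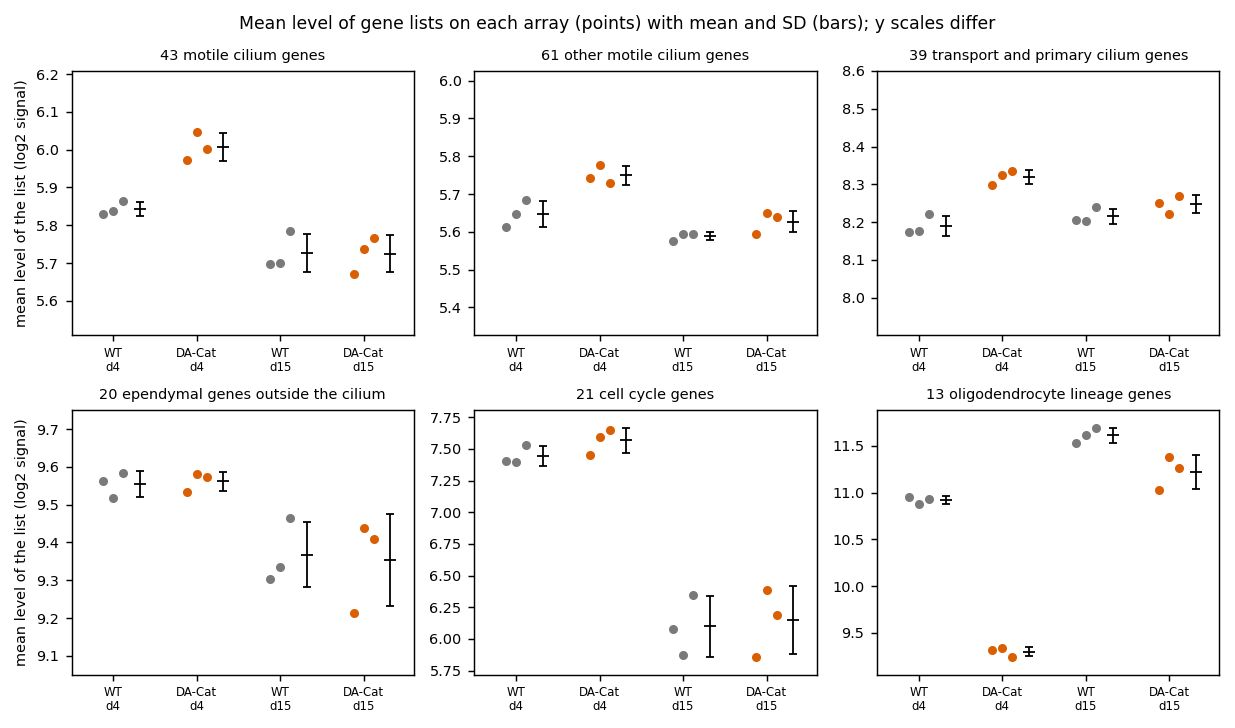
Mean log2 signal of whole gene lists on each of the 12 arrays, 1 point per array in 4 groups, with a bar at each group mean and a vertical axis of its own for each list. The 43 motile cilium genes run from 5.67 to 6.05 with the Olig2cre/DA-Cat arrays of day 4 highest, and oligodendrocyte lineage genes are lowest on those arrays.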

How the data were processed

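The deposited values are 1 log2 signal per probe set and array, made by the authors from one-colour arrays of biotin-labelled RNA; background correction, summarisation and normalization are not given in the sources used here, and the log2 scale was judged from the values. Of 45101 probe sets, 34958 have 1 gene symbol in the platform annotation, 932 several and 9211 none; the brightest 1-symbol probe set per gene gave 18194 genes, with no filter on level. Groups follow the labels. One mean per group was fitted with limma 3.58.1 in R 4.3.3 (lmFit, contrasts.fit, eBayes; 8 residual and 3.96 prior degrees of freedom), two-sided, with Benjamini-Hochberg adjustment over all genes. The fit was tested on simulated data. Replicates are labelled biological, and p-values measure the spread between these samples. Arrays have no read depth, and their number limits the precision. The 43 genes, the gene lists and the tests were chosen with earlier results of these data known. Values on every array are given for the regulators, genes called between genotypes and the 3 largest wild-type day differences per role; 12 of the 43 genes have more than 1 probe set. Alternatives were other scalings, no dim genes, trend and robust eBayes, probe set means, a replicate block, a muscle covariate, 6 arrays alone and leaving out each array.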

Additional observations from a re-analysis of the deposited data

Results flagged for a closer look

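Sass6, which builds the cartwheel of new centrioles and belongs to the list of multiciliation and centriole amplification, had a genotype difference that itself differed between days. It was 0.11 ± 0.06 at day 4 and -0.43 ± 0.06 at day 15, and the difference between the 2 was -0.54 ± 0.09 (limma adjusted p = 0.0215).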

How the results depend on the processing

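The count of motile cilium genes called between genotypes at day 4 (1) was 0 with median-centred arrays and with the muscle covariate, 5 without the dimmest 30% of genes (Foxj1, Rsph9, Tekt2, Enkur and Fam183b), 3 with trend and robust eBayes settings (Rsph9, Enkur and Fam183b), 2 with the 6 arrays of day 4 alone (Tekt2 and Enkur), and 0 to 3 with 1 array left out. At day 15 (0) it was 1 without the dimmest genes (Efhc2) and 0 to 1 with 1 array left out. On average (1) it was 2 without the dimmest genes and 1 to 4 with 1 array left out. Leaving out the dimmest 30% also removed members, among them Rfx2, Rsph4a, Stk33 and the 12 genes near background. Counts without the dimmest genes are therefore not out of 43, and fewer genes were adjusted for. The share of all genes called in each setting is not given beside these counts. The day counts ran from 7 to 15 in wild type (13) and from 17 to 21 in Olig2cre/DA-Cat (20) with 1 array left out, and stayed within 1.5 times under the other alternatives. The interaction count was 0 under all alternatives run. With the replicate number as a block the counts were 2 at day 4 (Rsph9 and Enkur), 1 at day 15 (Efhc2) and 2 on average (Rsph9 and Efhc2). Deviations from the group means of arrays with the same number had correlations of -0.34 to 0.30. Between genotypes on the same day they were all above 0 (0.263, 0.297 and 0.031 at day 4, 0.165, 0.175 and 0.015 at day 15). Arrays with unlike numbers were not compared, so whether the numbers pair the samples is not settled. Of 4960 values of single genes under alternatives, 4806 kept their side of the threshold, 87 lost a call, 67 gained one and 0 called values changed direction. The causes were not tested. With 3 arrays a group and 12 genes near background, small differences cannot be resolved.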
